A study of Bos taurus with 12 samples.

Results

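The genes described here are 28 genes of cholesterol synthesis and its control, listed by symbol and found as 1 row each among the 17983 gene rows of the count table. They comprise 20 enzymes and 8 control genes. The control genes belong to the sterol-sensing system that governs the enzymes, except MYLIP, which acts on lipoprotein receptors. All 28 were expressed enough to be tested. The material was bovine cumulus-oocyte complexes, oocytes still wrapped in their cumulus granulosa cells, which went through in vitro maturation as groups of 50. The 6 control groups were kept in medium alone, and the 6 nanoplastics groups in medium holding 3 µg/mL of polystyrene particles, 50 nm across. The samples are described as independent and drawn from 3 batches of bovine material, and which batch each came from was not among the labels.

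Cholesterol is built from acetyl-CoA through mevalonate, farnesyl diphosphate, squalene and lanosterol. When sterols in the endoplasmic reticulum fall, SCAP escorts the SREBP proteins, encoded by SREBF1 and SREBF2, to the Golgi, where proteases release the active transcription factors. INSIG1 and INSIG2 hold SCAP back when sterols are plentiful. In the mouse, oocytes express several enzymes of the pathway poorly and rely on cumulus cells for cholesterol, and oocyte factors raise these transcripts in the cumulus. An intermediate of the last stretch, made by CYP51A1, is known as follicular fluid meiosis-activating sterol.

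Total counts ran from 14167578 to 20008464 per library, and the 28 genes together took 0.286% to 0.345% of them. The defining markers of the labelled tissue were present. The 15 oocyte markers summed to between 930 and 1287 CPM (counts scaled to a common library total) over the libraries, and the 14 granulosa and cumulus markers to between 18479 and 21336 CPM. Of cells from outside the complex, leukocyte markers summed to at most 15.7 CPM and endothelial markers to between 36.8 and 48.0 CPM. Most of the endothelial sum came from KDR, with a mean of 36.8 CPM in control and 36.1 CPM with particles. Only 3 of the 7 endothelial markers were expressed enough to be tested. Red blood cell markers summed to between 2.79 and 103 CPM in control and between 3.81 and 329 CPM in nanoplastics libraries, a median log2 fold change of 1.40 for the 2 genes tested, with 0 called, and their part in the results was not tested. The theca enzyme gene CYP17A1 was at 0 in every library, while the whole list of 11 theca and stroma markers, mostly collagen and other matrix genes, summed to between 1315 and 1947 CPM in control and between 1583 and 1803 CPM with particles. In RNA from whole complexes, fewer cells of a type and less RNA per cell cannot be told apart. The libraries also differed in the oxygen-response gene VEGFA, whose log2 CPM lay between 6.76 and 10.23 in control and between 8.04 and 10.99 in nanoplastics libraries.

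The first comparison asked whether transcripts of the pathway differed after maturation with the particles. No enzyme, sensor or transcription factor of the pathway passed the test, and the intervals bound any difference tightly. Of the 28 genes, 0 had an adjusted p under 0.05 in edgeR's quasi-likelihood test, where 0% of all 12311 genes tested did (smallest adjusted p = 0.999). At an unadjusted p under 0.05 there was 1 gene, MYLIP, against 2.10% of all genes (1.07% counting those higher with particles, as MYLIP was), and DESeq2 and limma-voom each likewise called 0 genes and had MYLIP alone of the 28 below that level, against 2.16% and 1.88% of all genes. A positive log2 fold change was found for 12 of the 28, against 50.5% of all genes, and their median was −0.01, against 0.00 over all genes.

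For 28 of 28 genes the 95% interval stayed inside 1.5-fold up or down, as it did for 83.3% of all genes. It also did so for 97.3% of the 6865 genes in the same range of level, set by the members other than PMVK. The interval lay within 1.25-fold for 22 of the 28 (78.6%), against 56.8% of all genes and 82.2% of those 6865 genes. The widest interval was that of PMVK, the least abundant member, with as few as 43 reads in a library. A difference above 1.5-fold lies outside each interval, and the interval takes in 0 for each of the genes but MYLIP.

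**Figure D1:**
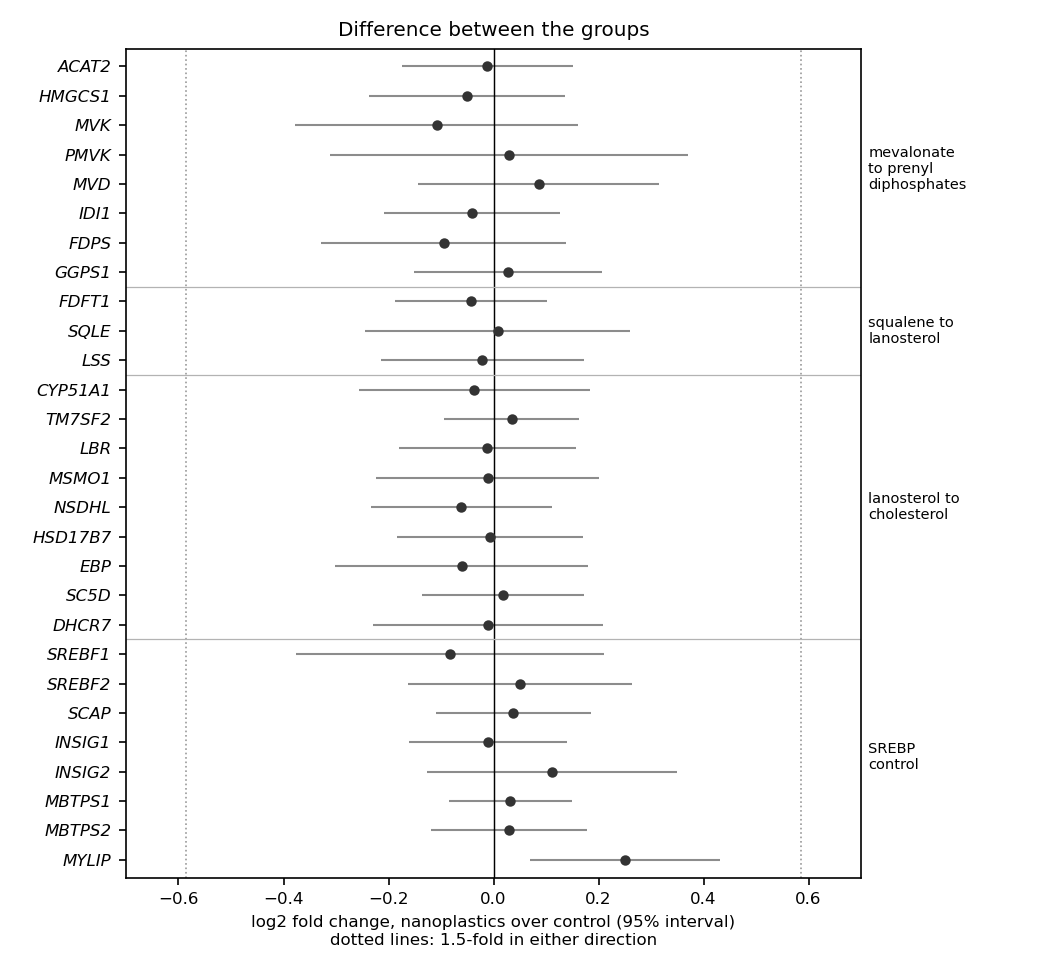
Log2 fold change of each of the 28 genes, nanoplastics over control (points), with the 95% interval of the edgeR fit (bars), 6 libraries a group. All intervals lie inside the dotted 1.5-fold lines, and that of MYLIP, 0.07 to 0.43, is the one that leaves out 0.

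The enzymes from acetyl-CoA to the prenyl diphosphates showed overlapping groups throughout. HMGCS1 (ENSBTAG00000011839), the cytosolic synthase that makes HMG-CoA, had a lowest, median and highest level of 206, 221 and 268 CPM in control and of 193, 208 and 267 CPM with particles. Its log2 fold change was −0.05 (SE 0.09, 95% interval −0.24 to 0.14). The groups span nearly the same range, with Control 5 and Nanoplastics 1 at the top of each.

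MVK, mevalonate kinase, varied most over libraries of all 28 genes, 1.91-fold from the lowest to the highest. It had 170, 250 and 325 CPM as lowest, median and highest without particles and 192, 238 and 270 CPM with particles, with a log2 fold change of −0.11 (95% interval −0.38 to 0.16). Control 5 lies below the nanoplastics range, and Control 4 and, narrowly, Control 3 lie above it. The log2 fold change of MVK was −0.20 without Control 5 and −0.02 without Control 4. MVD, the decarboxylase that yields isopentenyl diphosphate, had 34.0, 38.4 and 41.4 CPM in control and 32.5, 38.8 and 54.6 CPM with particles, with a log2 fold change of 0.09 (−0.14 to 0.32). Its highest value belonged to Nanoplastics 1.

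FDPS, farnesyl diphosphate synthase, had 122, 152 and 180 CPM in control and 117, 139 and 176 CPM with particles (log2 fold change −0.09, 95% interval −0.33 to 0.14). That value ran from −0.17 to −0.04 with 1 library left out, and was −0.01 with VEGFA as a covariate. The other 4 genes of this stretch had values between −0.04 for the isomerase IDI1 and 0.03 for PMVK, the phosphomevalonate kinase. The thiolase ACAT2, at 76.2 ± 5.32 CPM without and 75.6 ± 8.38 CPM with particles (SD, n = 6 each), and GGPS1, which makes geranylgeranyl diphosphate, lay between them. Reads of ACAT2 cannot be told apart from those of the overlapping gene TCP1 where they share sequence, since no source used here gives the strand setting of the counts.

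Squalene enzymes showed the same overlap. FDFT1, squalene synthase, had 109, 124 and 134 CPM in control and 106, 118 and 135 CPM with particles, with a log2 fold change of −0.04 (95% interval −0.19 to 0.10). SQLE, the squalene epoxidase, which needs molecular oxygen, had 95.7, 107 and 122 CPM in control and 81.8, 102 and 154 CPM with particles. Its log2 fold change was 0.01 (−0.24 to 0.26), and it was −0.12 without Nanoplastics 1, the library at 154 CPM. SQLE thus had its spread among the nanoplastics libraries, with both the highest and the lowest of the 12 values there.

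LSS, the cyclase that forms lanosterol, had 140, 160 and 173 CPM in control and 131, 151 and 187 CPM with particles. Its log2 fold change was −0.02 (95% interval −0.21 to 0.17). LSS was highest in Nanoplastics 3, where SQLE was lowest.

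Between lanosterol and cholesterol, 9 genes had log2 fold changes from −0.06 to 0.03. CYP51A1, lanosterol demethylase, had 92.3, 110 and 120 CPM in control and 83.7, 101 and 134 CPM with particles (log2 fold change −0.04, 95% interval −0.26 to 0.18). The sterol reductase TM7SF2, which acts on the product of CYP51A1, was among the steadiest of the 28, at 45.1 ± 2.88 CPM in control and 46.2 ± 2.29 CPM with particles (SD, n = 6 each). LBR, the lamin B receptor, carries the same reductase activity and had −0.01 (−0.18 to 0.16).

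MSMO1, the methyl sterol oxidase, had 167, 209 and 249 CPM in control and 184, 201 and 256 CPM with particles, with a log2 fold change of −0.01 (95% interval −0.22 to 0.20). The dehydrogenase NSDHL had −0.06 (−0.23 to 0.11) and the ketoreductase HSD17B7 had −0.01 (−0.18 to 0.17). The isomerase EBP had −0.06 (−0.30 to 0.18), with its 6 nanoplastics values, 17.6 to 28.5 CPM, reaching past the control range of 20.6 to 25.7 CPM at both ends. The desaturase SC5D had 0.02 (−0.14 to 0.17), and DHCR7, the reductase of the last step, −0.01 (−0.23 to 0.21).

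**Figure D2:**
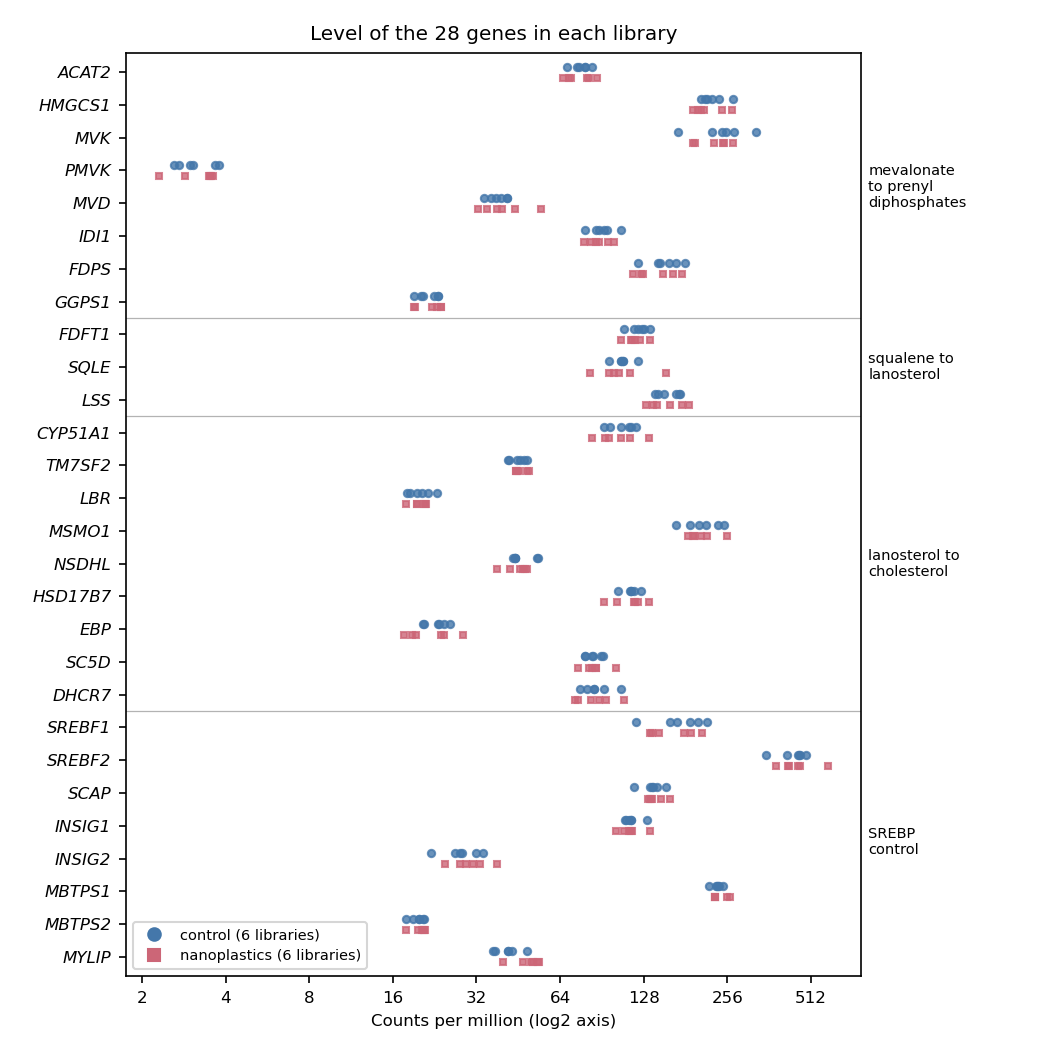
CPM (log2 axis) of each of the 28 genes in the 6 control (circles) and 6 nanoplastics (squares) libraries, grouped by role. The 2 groups overlap for every gene, and MYLIP has 4 nanoplastics libraries above the highest control library at 48.5 CPM.

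Among the genes of SREBP control, SREBF2 (ENSBTAG00000014265), whose product mainly drives cholesterol synthesis, had 352, 463 and 491 CPM as lowest, median and highest without particles and 385, 445 and 589 CPM with particles. Its log2 fold change was 0.05 (SE 0.10, 95% interval −0.16 to 0.26). SREBF1 (ENSBTAG00000007884), which mainly drives fatty acid synthesis, had 120, 178 and 217 CPM in control and 135, 162 and 208 CPM with particles, with a log2 fold change of −0.08 (SE 0.14, −0.38 to 0.21). Without Control 5 the value of SREBF1 was −0.17, and without Control 4 it was −0.01. Control 5 was lowest for both, and the highest library was Nanoplastics 1 for SREBF2 and Control 4 for SREBF1. The row of SREBF1 overlaps the gene RAI1, so its reads may hold some of that gene.

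INSIG1, the retention protein whose own transcription rises with SREBP activity, had 109, 114 and 132 CPM in control and 101, 115 and 135 CPM with particles. Its log2 fold change was −0.01 (95% interval −0.16 to 0.14). INSIG2, its relative, had 21.9, 28.1 and 33.9 CPM in control and 24.7, 30.3 and 38.0 CPM with particles, with a log2 fold change of 0.11 (−0.13 to 0.35), which was 0.05 without Nanoplastics 1, 0.05 without Control 4 and 0.17 without Control 5. The escort SCAP had 0.04 (−0.11 to 0.19). The Golgi proteases that cut SREBP in turn, MBTPS1 and MBTPS2, had 0.03 (−0.09 to 0.15) and 0.03 (−0.12 to 0.18), and MBTPS1 varied only 1.20-fold over the 12 libraries.

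MYLIP (ENSBTAG00000004115), a ubiquitin ligase that marks lipoprotein receptors for degradation and is induced through the oxysterol receptors, had the largest log2 fold change of the 28. It had 36.6, 41.6 and 48.5 CPM as lowest, median and highest without particles and 40.0, 50.8 and 53.9 CPM with particles. In nanoplastics libraries 4 of 6 values lay above the highest control value and 5 of 6 above the control median, while Nanoplastics 4 lay below it. The log2 fold change was 0.25 (SE 0.09, 95% interval 0.07 to 0.43), and edgeR's quasi-likelihood test gave an adjusted p of 0.999 over all genes tested (unadjusted p = 0.0100), so MYLIP was not called. In edgeR's unadjusted order it stood at rank 21 of 12311 genes. In the authors' deposited table its log2 fold change was likewise 0.25, with an unadjusted p of 0.00848 and an adjusted p of 0.999928.

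The correlation of MYLIP with VEGFA over libraries, given further on, did not pass the test. With the log2 CPM of VEGFA as a covariate, a setting added after the data were seen, the log2 fold change of MYLIP was 0.19 (edgeR's unadjusted p = 0.0199, adjusted p = 1.00). Over the 12 fits that left out 1 library each it ran from 0.21 to 0.30. Of the 17 oxygen-response genes 16 had a positive log2 fold change, 0 of them called, and their summed level lay between 1968 and 6295 CPM without and between 2605 and 9966 CPM with particles. The part of the oxygen response in the value of MYLIP was not tested further.

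Other genes of sterol and lipid handling, grouped in 6 lists, likewise held 0 called genes. Of 11 fatty acid synthesis genes driven by SREBP, 1 had a positive log2 fold change (median −0.04). SCD, the stearoyl-CoA desaturase, was the most abundant, at 3405 ± 271 CPM in control and 3163 ± 646 CPM with particles (SD, n = 6 each), with a log2 fold change of −0.11 (95% interval −0.35 to 0.14). FADS1, another desaturase, had the smallest p of that list, with a value of −0.13 (−0.28 to 0.02). Of 11 genes of SREBP degradation, retention and partner factors, 6 were positive (median 0.01), with the transcription factor SP1 at 0.23 (−0.05 to 0.50).

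Of 9 genes of sterol uptake and transport, 3 were positive (median −0.06). The log2 fold change was −0.02 (95% interval −0.17 to 0.14) for LRP1, a lipoprotein receptor, and 0.29 (−0.03 to 0.60) for SCARB1, the receptor for high-density lipoprotein. Oxysterol receptors and efflux genes, of which 6 were tested, had 3 positive members (median 0.01), with the oxysterol receptor NR1H2 at −0.04 (−0.15 to 0.07) and its partner RXRB at 0.09 (−0.02 to 0.20). In the isoprenoid branch 5 of 12 were positive (median −0.03), with NUS1, a subunit of the enzyme that builds dolichol, at −0.03 (−0.17 to 0.11) and its partner DHDDS at 0.13 (−0.01 to 0.28). Of 3 sterol ester genes tested 1 was positive, with the acyltransferase SOAT1 at −0.01 (−0.14 to 0.12) and the lipase LIPE at 0.08 (−0.23 to 0.39), while SOAT2 was at 0 in every library.

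For each gene but MYLIP, the log2 fold change was smaller in size than the SD of log2 CPM between libraries of a group. MYLIP had 0.25 against an SD of 0.15. Nanoplastics 1 held the highest value of 17 of the 28 genes, whereas 19.4% of all genes tested were highest there, and it held the lowest value of 0. Those 17 included SQLE, MVD and SREBF2, with 154, 54.6 and 589 CPM, against 122, 44.2 and 491 CPM in the next highest library. Nanoplastics 1 was also the library with the most VEGFA. In the same library SREBF1 (135 CPM), FDPS (128 CPM), LSS (143 CPM) and EBP (19.4 CPM) lay below their control medians. Nanoplastics 5 held the lowest value of 7 of the 28 genes, against 5.66% of all genes, Nanoplastics 3 of 6, against 9.36%, and Control 5 of 6, against 17.2%.

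**Figure D3:**
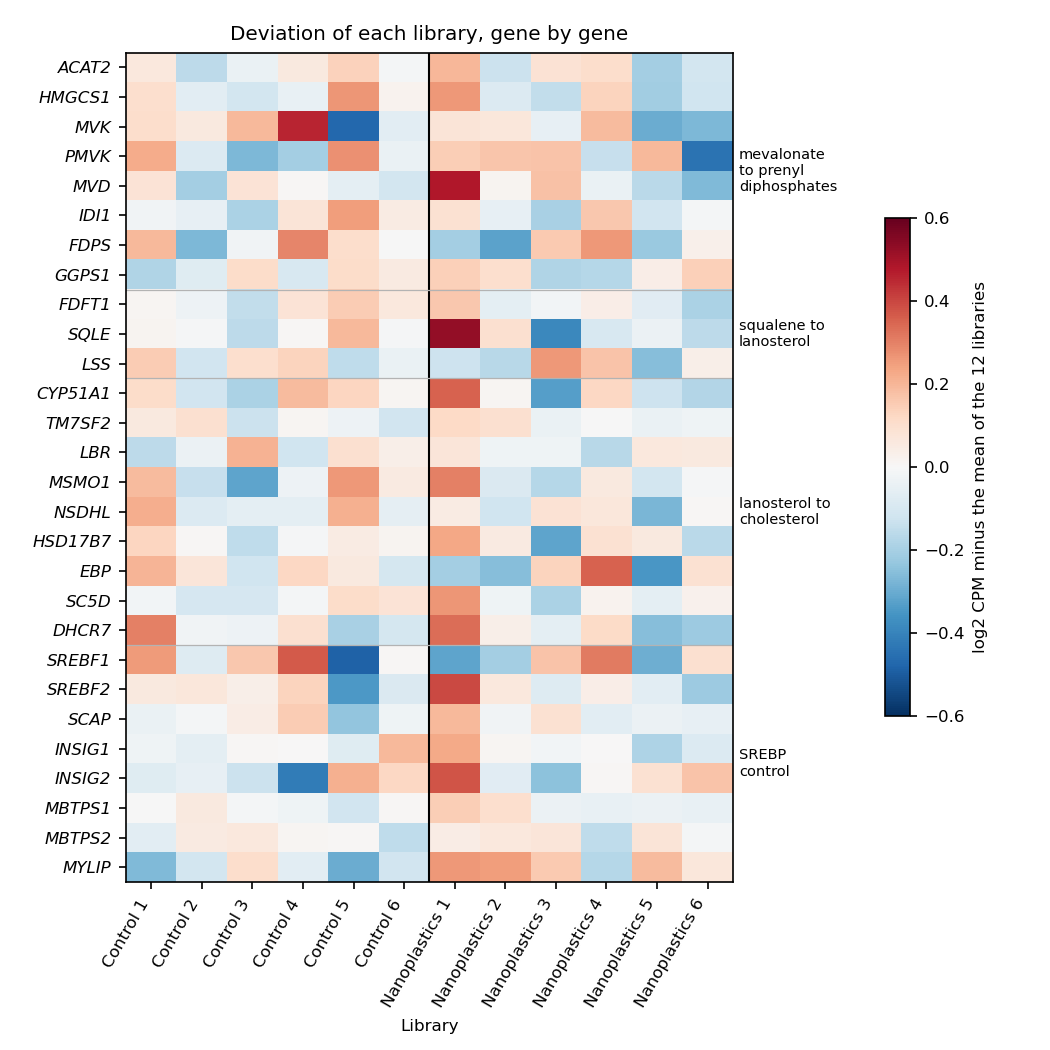
Log2 CPM of each gene in each library minus its mean over the 12 libraries, with genes by role in rows and libraries in columns. Nanoplastics 1 is high for most of the genes but low for FDPS, LSS, EBP and SREBF1, and Control 5 is low for MVK, SREBF1 and SREBF2.

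Which genes varied together was asked by correlating every member with every gene tested over the 12 libraries, a step added after the data were seen. Of 344680 relations 0 passed an adjusted p of 0.05 (permutation test with 100000 resamples, two-sided, smallest adjusted p = 0.0783), and of the 378 pairs among the 28 genes 0 passed, where 0% of all these relations did. The permutations treat libraries as exchangeable, although some share a batch of material. At an unadjusted p under 0.05 there were 81 pairs (21.4%), against 12.1% of the relations with genes outside the 28, and 68 of these pairs were positive. Pairs of 2 enzymes had a median r of 0.26, and 136 of 190 were positive. Pairs of an enzyme and a control gene had a median r of 0.06, and 89 of 160 were positive.

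HMGCS1 had 9 of its 27 partners at an unadjusted p under 0.05, while 3.41% of all genes stood below that level with it. MSMO1 had 10, against 5.56% of all genes, CYP51A1 and SC5D had 9 each, against 4.36% and 9.12%, and FDFT1 had 8, against 2.23%. SQLE had 9, against 15.9%, and PMVK had 0, against 3.31%. The pair of HMGCS1 and MSMO1 had r = 0.88 (permutation p = 0.00025, adjusted p = 0.103) and Spearman's rho = 0.83 (permutation p = 0.00146), with r = 0.92 in control and 0.92 in nanoplastics libraries. Without Control 5 and Nanoplastics 1, the libraries farthest from the median of HMGCS1, r was 0.73.

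Among the other 27 genes SREBF1 had its largest r with LSS, at r = 0.88 (permutation p = 0.00037, adjusted p = 0.112) and rho = 0.88 (permutation p = 0.00042), with r = 0.91 in each group and 0.93 without Nanoplastics 3 and Nanoplastics 5. SREBF1 and INSIG2 had r = −0.69 (permutation p = 0.0120, adjusted p = 0.259) and rho = −0.72 (permutation p = 0.0105), with r = −0.84 in control, −0.51 in nanoplastics libraries and −0.52 without Control 4 and Nanoplastics 1. For SREBF1 7 of 27 members had an unadjusted p under 0.05 (25.9%), where 23.4% of all genes did, so this count is near the background. LSS had 6, against 25.5% of all genes, and SREBF2 had 5, against 23.4%.

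SREBF2 and DHCR7 had r = 0.81 (permutation p = 0.00096, adjusted p = 0.134) and rho = 0.81 (permutation p = 0.00227), with r = 0.70 in control, 0.91 in nanoplastics libraries and 0.78 without Control 1 and Nanoplastics 1. The transcript of SREBF2 did not track that of HMGCS1 over all 12 libraries, with r = 0.16 (permutation p = 0.608, adjusted p = 0.884) and rho = 0.20 (permutation p = 0.541). Within groups r was −0.82 in control and 0.83 in nanoplastics libraries, and over all libraries but Control 5 and Nanoplastics 1 it was 0.38. The difference between the groups was not tested.

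**Figure D4:**
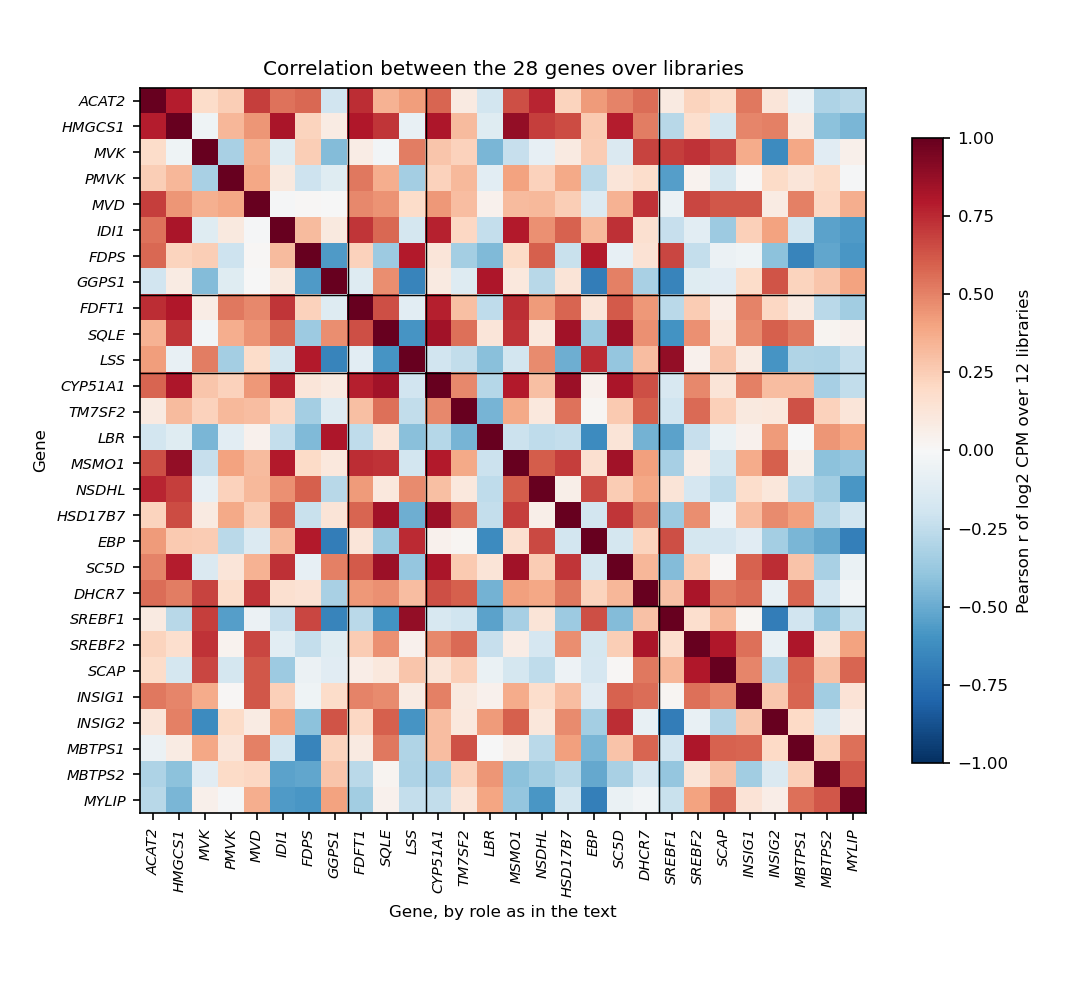
Pearson r of log2 CPM over the 12 libraries between each pair of the 28 genes, ordered by role, with black lines between roles. The colours describe these 12 libraries, since 0 of the 378 pairs passed the test; HMGCS1 with MSMO1 and LSS with SREBF1 both stand at 0.88.

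INSIG1, VEGFA and the mean of 14 oocyte markers served as references, and 36931 relations were adjusted together. Called relations with VEGFA made up 5.55% of genes, those with the oocyte mean 0.504% and those with INSIG1 0.0406%. These were 683, 62 and 5 genes, and without Nanoplastics 1 they were 183, 17 and 0. Over all left-out libraries the counts ran from 183 to 629, from 17 to 59 and from 0 to 9. Of the pathway genes 0 passed with any of them. At an unadjusted p under 0.05 there were 5 of 28 with VEGFA against 28.3% of all genes, 3 of 27 with INSIG1 against 3.44%, and 1 of 28 with the oocyte mean against 9.71%. With all libraries the share of pathway genes at that unadjusted level with VEGFA was thus not above that of genes at large. This depended on Nanoplastics 1, without which there were 8 of 28 with VEGFA against 20.3% of all genes. The count with INSIG1 also depended on single libraries. It was 0 of 27 without Nanoplastics 1 (2.02% of all genes), 0 without Nanoplastics 5 (9.87%) and 6 without Control 6 (5.60%). With the oocyte mean there were 7 of 28 without Nanoplastics 1, against 11.7% of all genes.

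With VEGFA, NSDHL had r = −0.79 (permutation p = 0.00193, adjusted p = 0.0693) and rho = −0.77 (permutation p = 0.00483), with r = −0.96 in control, −0.57 in nanoplastics libraries and −0.56 without Control 1 and Control 5, the libraries of lowest VEGFA. FDPS had r = −0.78 (permutation p = 0.00343, adjusted p = 0.0963) and rho = −0.78 (permutation p = 0.00444), with r = −0.62 in control, −0.92 in nanoplastics libraries and −0.85 without the same libraries. MBTPS1 had r = 0.75 (permutation p = 0.00410, adjusted p = 0.106) and rho = 0.75 (permutation p = 0.00717), with r = 0.73, 0.78 and 0.79 in the same order. Without Control 1 or without Nanoplastics 5, MBTPS1 passed (adjusted p = 0.0396 and 0.0463), and without Nanoplastics 1 NSDHL did (r = −0.94, adjusted p = 0.00859).

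MYLIP had r = 0.70 with VEGFA (permutation p = 0.0138, adjusted p = 0.198) and rho = 0.74 (permutation p = 0.00822). It had r = 0.69 in control and 0.73 in nanoplastics libraries, and 0.41 without Control 1 and Control 5. EBP had r = −0.73 (permutation p = 0.00833, adjusted p = 0.154), with −0.52 in control and −0.90 in nanoplastics libraries. For LSS and SREBF1 r was −0.56 and −0.32 (permutation p = 0.0625 and 0.313, adjusted p = 0.399 and 0.716). It was −0.12 and 0.25 in control, −0.91 and −0.97 in nanoplastics libraries, and −0.90 and −0.87 without Control 1 and Control 5. This difference between the groups was not tested.

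**Figure D5:**
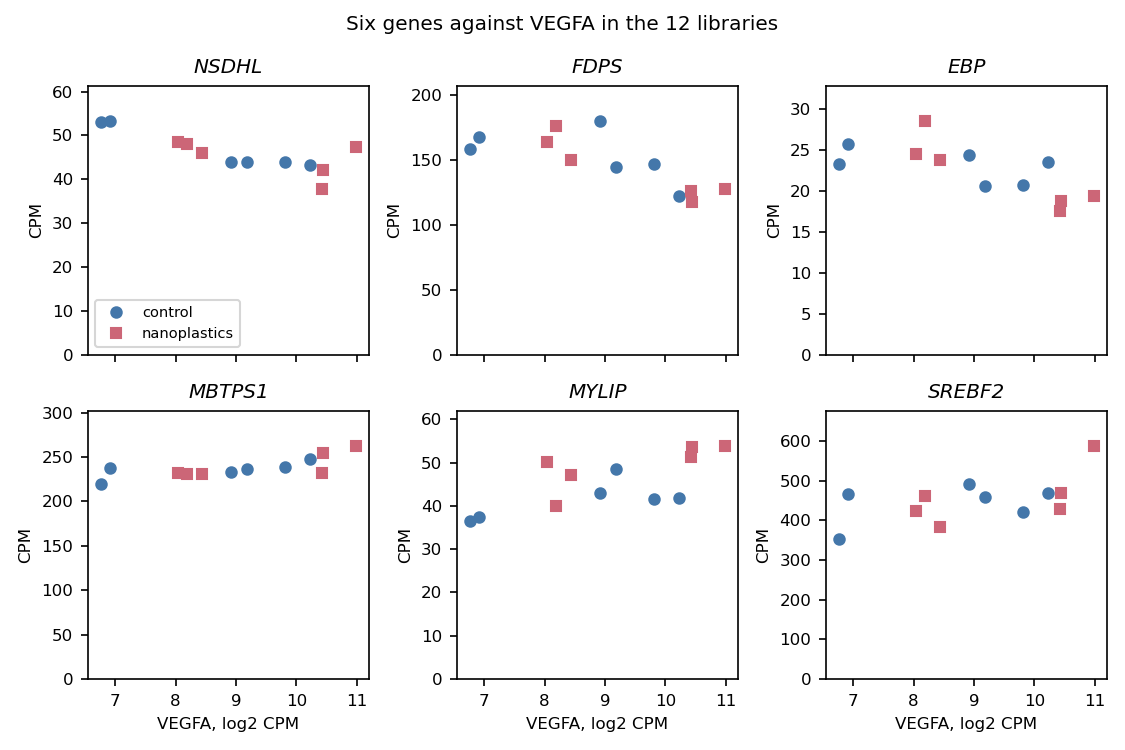
CPM of 6 genes (vertical axes from 0) against the log2 CPM of VEGFA in the 6 control (circles) and 6 nanoplastics (squares) libraries. None of the relations drawn passed the adjusted test with all libraries. In that setting the share of the 28 genes at an unadjusted p under 0.05 with VEGFA was below that of all genes, 28.3%.

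With INSIG1, MVD had r = 0.62 (permutation p = 0.0384, adjusted p = 0.321) and rho = 0.61 (permutation p = 0.0416), with r = −0.09 in control, 0.88 in nanoplastics libraries and 0.64 without Control 6 and Nanoplastics 1. With 1 library left out, r ran from 0.27 to 0.86 for this pair. SC5D had r = 0.59 (permutation p = 0.0471, adjusted p = 0.353), with rho = 0.25 (permutation p = 0.431) and r = 0.33 in control, 0.71 in nanoplastics libraries and −0.12 without those libraries, so it rested on them. MBTPS1 had r = 0.58 (permutation p = 0.0475, adjusted p = 0.354) and rho = 0.59 (permutation p = 0.0469), with r = 0.24 in control, 0.78 in nanoplastics libraries and 0.31 without those libraries.

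Against the oocyte marker mean, IDI1 had r = −0.65 (permutation p = 0.0234, adjusted p = 0.255) and rho = −0.43 (permutation p = 0.163), with r = −0.85 in control and −0.39 in nanoplastics libraries. HSD17B7 had r = −0.56 (permutation p = 0.0556, adjusted p = 0.378) and rho = −0.22 (permutation p = 0.483), with r = −0.60 and −0.61 in the groups. LSS had r = 0.56 (permutation p = 0.0605, adjusted p = 0.393) and rho = 0.47 (permutation p = 0.127), with r = 0.53 in control and 0.63 in nanoplastics libraries. Without Control 3 and Nanoplastics 3, the libraries farthest from the median of the oocyte mean, r was −0.19, 0.26 and 0.28 in the same order. The relation of HSD17B7 thus changed sign without those libraries, and those of IDI1 and LSS were weaker.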

How the data were processed

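RNA from groups of 50 complexes was sequenced as polyadenylated RNA, per the labels. The submitters' processing notes name DESeq2, STAR 2.5.4b and Trim Galore 0.4.5. No source used here gives the counting tool, strand setting, build or annotation, and no coordinates are printed. The authors deposited raw counts for 18057 gene rows, from which 74 exact copies were dropped. Their deposited contrast gives a p-value, an adjusted p-value and a log2 fold change per gene; 7 further value columns were not used. Overlapping genes were taken from RefSeq's table of assembly ARS-UCD2.0, in which 28 symbols matched.

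Genes were kept by filterByExpr (minimum count 10, total 15, 6 libraries), scaled by TMM and fitted with glmQLFit of edgeR 4.0.16 under R 4.3.3. The two-sided glmQLFTest was adjusted by Benjamini-Hochberg over all 12311 genes, at a threshold of 0.05. The biological coefficient of variation was 0.146. Levels are CPM, and correlations used log2 CPM with a prior count of 2 in Python 3.11.15 with numpy 2.4.6. Alternatives were run with DESeq2 1.42.0 and limma 3.58.1. Both procedures were tested on simulated data. Text names all 28 genes, the most abundant and smallest-p gene of each pathway list, and the 3 genes of largest r per reference, except 1 that is not reported here; other pairs were chosen after their values were seen. Members and lists were chosen with earlier results of these data known. P-values measure the spread between samples, and which batch each sample came from is not known. Libraries of a group all differed beyond counting noise (smallest chi-square per degree of freedom 5.01).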

Additional observations from a re-analysis of the deposited data

Results flagged for a closer look

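Each library was compared with the others of its group on the log2 CPM scale for the 28 genes, as the distance from the end value to the next, divided by the whole spread of that group. Of 56 groups of values 1 was set apart (1.79%), and chance sets apart about 1 in 20. INSIG1 stood at 7.04 in Control 6, against 6.78 to 6.85 in the other control libraries.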

How the results depend on the processing

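Over 18 other settings (other scaling, no count filter, DESeq2, limma-voom, the replicate block, VEGFA as a covariate and 12 left-out libraries) 0 genes were called, and the smallest adjusted p of a member was 0.933. MYLIP was positive in each, with unadjusted p from 0.00163 to 0.0291. The number of genes at an unadjusted p under 0.05 ran from 141 without Nanoplastics 1 to 482 without Nanoplastics 4, against 259 with all libraries. The sign was the same in all settings for 10 of 28 genes, and no member that turned sign was called. With VEGFA as a covariate, added after the data were seen, log2 fold changes turned to 0.0206 for ACAT2, 0.0110 for EBP, −0.00220 for GGPS1, 0.0252 for LSS, 0.0223 for MSMO1, 0.00331 for NSDHL, −0.0561 for SQLE and −0.0125 for SREBF2. SQLE also turned to −0.0164 with limma-voom and −0.0166 with the replicate block. Over all genes tested, same-numbered libraries deviated together at r from −0.26 to 0.43. These values do not settle whether the numbers pair the samples. The replicate block called 0 genes.

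With 1 library left out, values of changed sign ran from −0.0518 to 0.0200 for ACAT2, −0.118 to 0.0120 for CYP51A1, −0.0837 to 0.0479 for DHCR7, −0.00999 to 0.0569 for GGPS1, −0.0532 to 0.0432 for HSD17B7, −0.0864 to 0.00483 for IDI1, −0.0576 to 0.0295 for INSIG1, −0.0486 to 0.0312 for LBR, −0.0856 to 0.0188 for LSS, −0.0747 to 0.0396 for MSMO1, −0.0143 to 0.138 for MVD, −0.0175 to 0.107 for PMVK, −0.0348 to 0.0477 for SC5D, −0.00713 to 0.0737 for SCAP, −0.117 to 0.0690 for SQLE and −0.0296 to 0.0921 for SREBF2. The cause was not tested. The count of members correlated with VEGFA ran from 0 to 1 in these fits, and those with INSIG1 and the oocyte mean stayed at 0. With replicate pairs as the unit, 6 differences cannot pass the adjustment, so that setting says nothing of the correlations. PMVK, with 43 reads or more per library, had the widest interval of the 28.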
